A study of Mus musculus with 17 samples.

Results

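The heat shock chaperones of the cytosol and of the mitochondrial matrix were followed in cultured mouse ovarian follicles, in which an inhibitor of the EGF receptor kinase had been applied around the ovulatory stimulus. A set of 10 genes was chosen by gene symbol from 25198 rows of a count table: Hspa1a, Hspa1b, Hspa8, Hsph1, Dnajb1, Hsp90aa1, Hsp90ab1, Hspb1, Hspd1 and Hspe1. All 10 were found. The follicles came from 16-day-old mice of the outbred CD1 strain and had grown for 8 days in eIVFG, encapsulated in vitro follicle growth, in which single follicles are held in a gel bead. The Tyrphostin group (6 libraries) received 10 µM Tyrphostin-AG1478, an EGF receptor kinase inhibitor, in DMSO, together with hCG (human chorionic gonadotropin, which starts ovulation in culture), for 4 hours. The Control group had 11 libraries. The labels give all samples 1 treatment text, so they do not state whether Control follicles were given hCG or DMSO, and the inhibitor cannot be told apart from any other difference between the groups. Batch 1 of the labels holds 6 Control with 3 Tyrphostin libraries, batch 2 holds 5 with 3, and the labels do not say what a batch was. Each sample pooled follicles in triplicate. Control libraries fall into 5 sets by their library names, and nothing states that libraries of a set came from separate cultures or animals. The p-values below then measure the spread between libraries, which may be partly technical.

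Heat shock proteins hold unfolded or partly folded proteins and help them reach their native form. HSP70 proteins bind short exposed stretches of a client in a cycle driven by ATP: J-domain proteins such as Dnajb1 bring clients and start ATP hydrolysis, and HSP110 proteins such as Hsph1 release ADP so that the client can leave. HSP90 proteins take over late folding steps of kinases and steroid receptors, small heat shock proteins such as Hspb1 hold clients without ATP, and the mitochondrial HSP60 ring (Hspd1) folds proteins under its HSP10 lid (Hspe1). Many of these genes answer to HSF1, a factor that binds heat shock elements, which are inverted repeats of the bases GAA. Granulosa cells of the ovulatory follicle switch on much secretory and steroidogenic protein synthesis, and kinases and receptors of that response are known HSP90 clients.

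The promoters are shown first, as a description of the heat shock elements found in the members. A RefSeq table for the build GRCm38.p6 held promoter windows for 7 of the 10 members (not for Hspa8, Hsp90aa1 and Hsp90ab1), each running from 250 bases before a start site to 50 after it. A 13-base element, TTCNNGAA followed by NNTTC, read on either strand, was found in 3 members, Hsph1, Hspd1 and Hspe1, and in 0.603% of the 32851 windows of the table. The count is of genes and the share is of windows, so they are not directly comparable. The window of the first Hspd1 start held 0 matches, and Hspd1 and Hspe1 share the same bases. The 8-base forms GAANNTTC and TTCNNGAA, each its own reverse complement and both contained in the 13-base element, were found in 7.86% and 8.52% of windows, and either of them in 15.1%. Hspa1a, Hspa1b and Hspb1 held an 8-base form and no 13-base element, so 6 members had at least an 8-base form. No form was found in the windows of Dnajb1, and the TATA sequence TATAAA, which 13.6% of windows held on either strand, was found in 0 of the 7 members. These matches describe letters in a window and do not show binding, and a link between them and RNA levels was not tested. In the sequences that follow, 5′ to 3′ on each gene's own strand, capitals mark bases inside a heat shock element.

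Hsph1 was the member whose level changed, and its 13-base element lay 37 bases into the transcript from the first RefSeq start site and 16 from the second. By GENCODE M21 it is in the first exon of Hsph1, in the 5′ UTR. An 8-base form lay at -33 and -54 from the same start sites, and overlaps an exon of the transcript Hsph1-206. The first stretch is chr5:149636287-149636316 and the second chr5:149636348-149636377, both on the minus strand of GRCm38.
Hsph1, 13-base element: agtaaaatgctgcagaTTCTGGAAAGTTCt
Hsph1, 8-base form: tagaatctTTCTCGAAggctcgagaagaag

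Hspd1 and Hspe1 lie head to head on chromosome 1, and the same 18 bases serve both windows: they hold 2 overlapping 13-base elements, first at -89 and -84 from the Hspe1 start and at -144 and -139 from the second Hspd1 start. The stretches are chr1:55088051-55088080 on the plus strand and chr1:55088055-55088084 on the minus strand of GRCm38, within the first exon of 1 GENCODE transcript of Hspd1 and outside the exons of Hspe1.
Hspe1: acggtccgTTCTAGAACCTTCCGGAAggcc
Hspd1: gcggggccTTCCGGAAGGTTCTAGAAcgga

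The inducible HSP70 genes Hspa1a and Hspa1b have nearly the same promoter: the 300-base windows differed at 4 bases (98.7% identical), and each held 1 form GAANNTTC at -104. They are shown with Hspb1, which held 2 such forms at -117 and -97, since these 3 genes were the members close to absent from the libraries. The stretches are the 250 bases before each start: chr17:34972157-34972406 and chr17:34959239-34959488 on the minus strand, and chr5:135887669-135887918 on the plus strand.
Hspa1a: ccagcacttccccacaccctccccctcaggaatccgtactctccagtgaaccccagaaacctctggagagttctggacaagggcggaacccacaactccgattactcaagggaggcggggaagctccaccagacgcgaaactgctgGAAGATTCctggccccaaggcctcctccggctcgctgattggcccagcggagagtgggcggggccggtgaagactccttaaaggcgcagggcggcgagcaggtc
Hspa1b: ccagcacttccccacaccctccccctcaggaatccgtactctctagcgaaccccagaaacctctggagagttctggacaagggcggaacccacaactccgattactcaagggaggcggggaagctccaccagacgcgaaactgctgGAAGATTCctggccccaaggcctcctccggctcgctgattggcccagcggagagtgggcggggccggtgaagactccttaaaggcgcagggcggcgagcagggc
Hspb1: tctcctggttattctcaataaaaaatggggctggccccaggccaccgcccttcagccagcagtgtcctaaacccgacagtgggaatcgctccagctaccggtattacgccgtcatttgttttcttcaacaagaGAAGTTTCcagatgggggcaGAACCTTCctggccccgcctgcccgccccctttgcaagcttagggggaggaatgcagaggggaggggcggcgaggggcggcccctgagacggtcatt

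**Figure D1:**
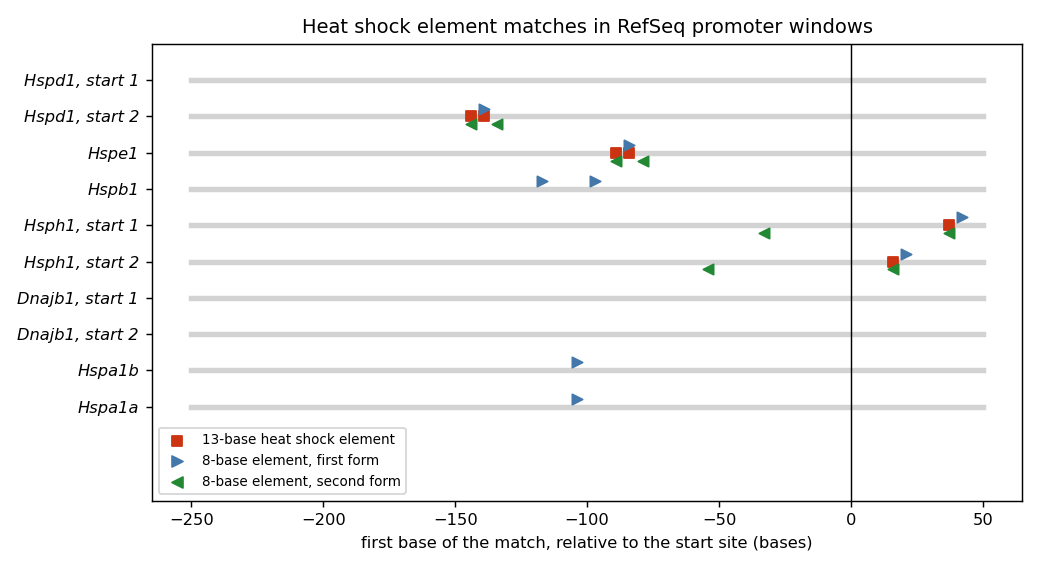
Heat shock element matches in RefSeq promoter windows of 7 members. The horizontal axis is the first base of each match relative to the start site in bases, grey lines are the windows, red squares the 13-base element, and blue and green triangles the 8-base forms GAANNTTC (first form) and TTCNNGAA (second form). Red squares are seen in Hspd1, Hspe1 and Hsph1, and in Hsph1 they lie after the start.

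Library totals ran from 1820545 counts (Control 6) to 8291024 (Control 8). Values below are CPM, counts scaled to 1 common library total with TMM factors, and log2 fold changes are Tyrphostin against Control with batch as a term. As a check of the inhibitor, the ERK phosphatase gene Dusp6 had a log2 change of -2.05 ± 0.22 (SE; adjusted p = 1.88e-06 by edgeR) and the prostaglandin synthase gene Ptgs2 of -2.4 ± 0.24 (SE; adjusted p = 5.33e-07 by edgeR). Of the markers of granulosa cells, Amh was at 0 in 12 libraries (highest count 4) and Foxl2 in 3, while Inha, Inhba and Cyp11a1 were abundant. The 9 granulosa markers held 6.39% to 7.25% of counts in Control and 7.33% to 7.84% in Tyrphostin libraries of batch 1, without overlap, and 7.62% to 8.59% and 7.84% to 9.26% in batch 2, with overlap. Control 7 stood apart, with 0.175% of its counts in mitochondrially encoded genes. The other Control libraries held 1.86% to 2.83% in batch 1 and 1.74% to 1.94% in batch 2. The Tyrphostin libraries held 1.55% to 2.5% in batch 1, overlapping the Control libraries, and 0.781%, 1.32% and 0.797% in batch 2, all below the Control libraries there other than Control 7.

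The part of the counts held by heat shock chaperones overlapped between the groups. The 10 genes held 0.55% to 1.02% of counts in Control libraries (median 0.766%) and 0.55% to 1.11% in Tyrphostin libraries (median 0.75%). Most of this was Hsp90ab1, the constitutive HSP90, and Hspa8, the constitutive HSP70. Per kilobase of exon, Hsp90ab1 stood at 1793 CPM per kb ± 507 (SD, n = 11) across Control, and 1428 ± 519 (SD, n = 6) across Tyrphostin libraries. Hspa8 followed at 495 CPM per kb ± 178 (SD, n = 11) and 529 ± 118 (SD, n = 6), and Hspd1 at 123 CPM per kb ± 27.6 (SD, n = 11) and 132 ± 25.8 (SD, n = 6). In Control libraries the next genes, Hsph1 (29.9 CPM per kb ± 8.68, SD), Dnajb1 (28.8 ± 8.84) and Hspe1 (28.8 ± 6.76), lay within 1 SD of each other. In Tyrphostin libraries the order of these was Hspe1 (28.7 CPM per kb ± 6.93, SD), Dnajb1 (20.8 ± 4.56) and Hsph1 (15.6 ± 3.37), with Hsph1 close to Hsp90aa1 (14.2 ± 3.09; Control 14.6 ± 4.03). The length used joins all annotated exons: 7266 bases for Hsph1, against 3802 in its longest coding transcript. For Dnajb1 these are 3204 and 2996, for Hspe1 1474 and 774, and for Hsp90aa1 3931 and 3281. The order of these 4 genes therefore depends on the length chosen. Hspa1a, Hspa1b and Hspb1 came last, all under 1 CPM per kb on average in both groups.

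Some of these levels are uncertain because near-identical copies exist. Of the 50-base windows in the longest coding transcript, 74.8% occurred in transcripts of other genes for Hspa8, 66.3% for Hspa1a, 62.3% for Hspa1b, 58.5% for Hsp90aa1, 51.6% for Hspb1 and 44.8% each for Hspd1 and Hspe1, in part processed pseudogenes. The share was 4.49% for Hsp90ab1, 0.441% for Dnajb1 and 0 for Hsph1. How reads with several matches were counted is not given in the sources used here. Exons of Hspd1 and Hspe1 overlap on opposite strands over 4.24% and 7.6% of their bases, and 19% of the exon bases of Hspa1a overlap Gm20481 on the other strand. Whether counting used strand is not given either.

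Of the 10 members, 7 passed the filter on low counts and were tested, and 1 of these, Hsph1, had an adjusted p under 0.05. Over all 9603 genes tested, 10.6% were called (6.25% lower and 4.35% higher), so the share of members called is near the background. The median log2 fold change of the 7 was -0.01, against 0 over all genes. At an unadjusted p under 0.05 the members were 2, Hsph1 and Dnajb1, against 23.7% of all genes. In bulk samples, fewer cells of a type and less RNA per cell cannot be told apart.

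**Figure D2:**
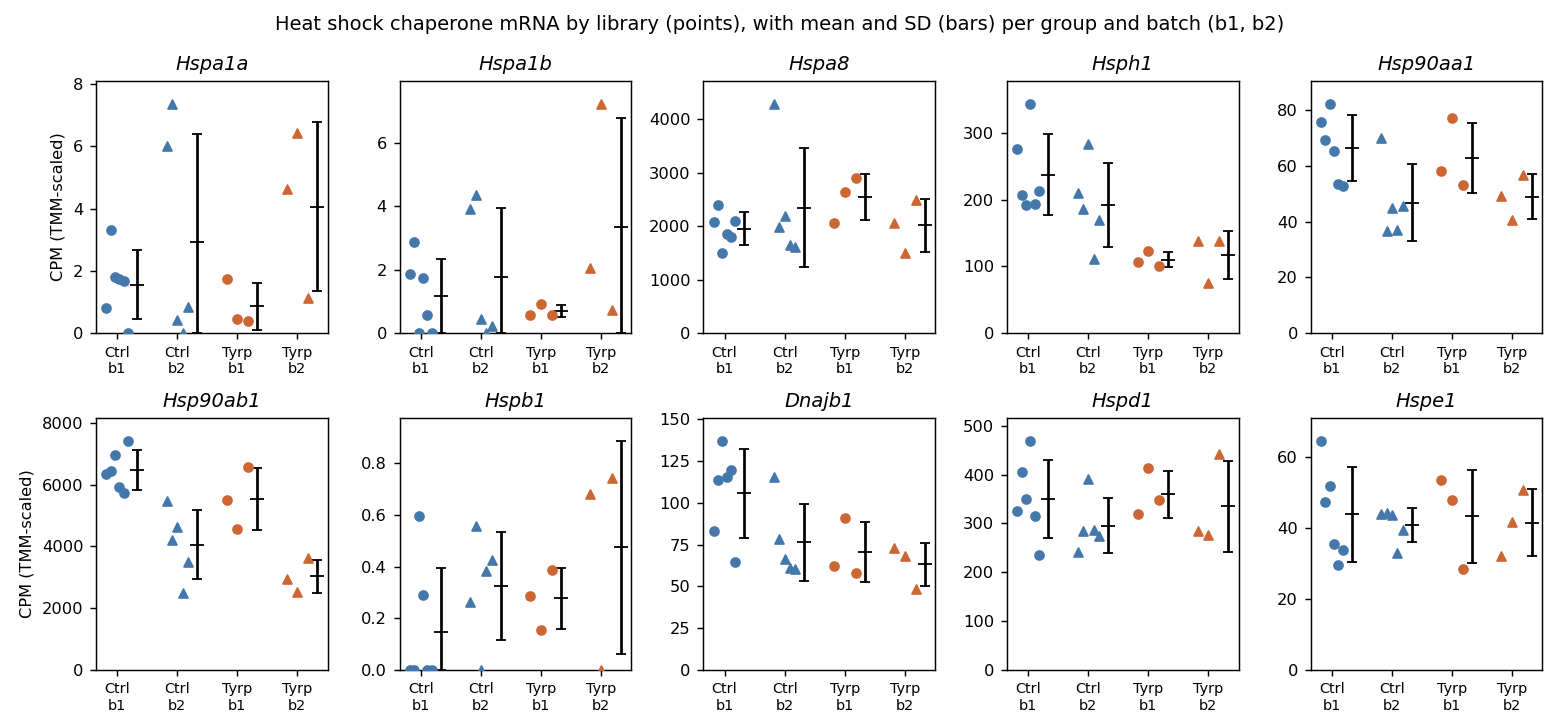
Level of each member in every library. The vertical axes are TMM-scaled CPM and start at 0, points are libraries, grouped by Control (Ctrl, blue) and Tyrphostin (Tyrp, orange) and by batch (b1 circles, b2 triangles), and black bars are the mean ± SD, ended at 0 where they would go below it. All 6 Hsph1 values of the Tyrphostin group, 75 to 138 CPM, lie under the Control median of 207 CPM.

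Hsph1, the HSP110 exchange factor that releases ADP from HSP70, is on chr5:149614287-149636376 on the minus strand (GRCm38, as for the genes that follow). Its Control libraries ran from 112 to 344 CPM with a median of 207, on counts of 392 to 1675 per library. In batch 1 the Tyrphostin libraries held 107, 123 and 101 CPM, and in batch 2 they held 138, 75 and 138 CPM. The 3 of batch 1 lay below all 6 Control libraries of that batch (192 to 344 CPM). In batch 2 the lowest, Tyrphostin 5, lay below every Control library, while the other 2 overlapped only Control 10, at 112 CPM. Hsph1 averaged 217 ± 63.1 CPM (SD, n = 11) across Control, and 114 ± 24.5 CPM (SD, n = 6) across Tyrphostin libraries. It fell, with a log2 change of -0.91 ± 0.2 (SE; 0.532 times the Control level; edgeR quasi-likelihood test, adjusted p = 0.00484). A total of 3 of 6 Tyrphostin libraries lay below every Control library. All 6 did so for 1.00% of genes, a stricter condition than 3 of 6. The shares of genes with at least 3, or with the order seen within batch 1 or batch 2, were not counted.

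The fall of Hsph1 was seen within both batches and passed the threshold in batch 1. In batch 1 its log2 fold change was -1.1 ± 0.25 (SE; adjusted p = 0.01 by edgeR), the only call among the members there, against 6.73% of the 9423 genes tested. In batch 2 it was -0.71 ± 0.33 (SE; edgeR p = 0.0526, adjusted p = 0.473). There 0 members were called by edgeR or DESeq2 and 0 had an edgeR p under 0.05, while 0.621% of 9830 genes were called and 10.7% had a p under 0.05. The difference between batches was 0.4 ± 0.39 (SE; edgeR interaction p = 0.324). The interaction passed the threshold in edgeR for 0 of 9603 genes, and 3.56% had an unadjusted p under 0.05. Of the 7 granulosa markers tested, 3 were called higher with the inhibitor, Nr5a2 (log2 change 2.18), Lhcgr (1.02) and Fshr (0.83), against 4.35% of all genes. The others, Inha (-0.05), Inhba (-0.07), Nr5a1 (-0.11) and Cyp11a1 (0.05), were not called. The granulosa share of unscaled counts separated the groups in batch 1, the batch in which Hsph1 was called, and the mitochondrially encoded share separated them in batch 2 apart from Control 7. With TMM scaling, the log2 changes in batch 1 were -0.02 for Inha, -0.04 for Inhba, 0.01 for Nr5a1 and 0.12 for Cyp11a1. They were 0.8 for Fshr, 1.22 for Lhcgr and 2.29 for Nr5a2. The theca and stroma markers held 0.0232% to 0.216% of counts in Control and 0.0299% to 0.368% in Tyrphostin libraries. The highest of these was Tyrphostin 5, the library with the least Hsph1, and leaving it out gave -0.82 (edgeR adjusted p = 0.0158). Oocyte markers held at most 0.0164% and 0.0304% of counts, endothelial markers 0.00778% and 0.00335%, and immune markers 0.0497% and 0.103% in Control and Tyrphostin libraries. Their part in the result was not tested. Without Control 7 the log2 fold change of Hsph1 was again -0.91 (edgeR adjusted p = 0.00407).

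No change was called for Hspa8, the HSP70 that Hsph1 serves. This gene, on chr9:40800984-40810087 on the plus strand, ran from 1506 to 4287 CPM in Control (median 1982) and from 1494 to 2910 CPM in Tyrphostin libraries (median 2277). Over both batches the groups overlapped, with 1 Tyrphostin library below every Control library and 0 above. In batch 1 alone, Tyrphostin 2 and Tyrphostin 3 (2641 and 2910 CPM) lay above all 6 Control libraries (1506 to 2388 CPM). The share of all genes with this order was not counted. Control 7 was the highest of all 17, followed by Tyrphostin 3. The log2 fold change of Hspa8 was 0.1 ± 0.21 (SE; adjusted p = 0.832 by edgeR), and 0.26 without Control 7 (edgeR adjusted p = 0.305). Its sign differed between batches, at 0.39 ± 0.23 (SE) in batch 1 and -0.21 ± 0.35 (SE) in batch 2, where it was 0.12 without Control 7. The difference between batches was -0.6 ± 0.42 (SE; edgeR interaction p = 0.165).

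Dnajb1, the main stress-inducible J-domain protein of the cytosol, is on chr8:83608193-83612653 on the plus strand. Control libraries ran from 60.4 to 137 CPM (median 83.3), and Tyrphostin libraries from 48.3 to 91 CPM (median 65.2). Of the Tyrphostin libraries 2 lay below every Control library (share over all genes not counted), and the highest, Tyrphostin 2, lay above the Control median. Its log2 fold change was -0.43 ± 0.19 (SE; edgeR p = 0.0301, adjusted p = 0.156), which did not pass the threshold. The batches gave -0.58 ± 0.25 (SE; adjusted p = 0.191 by edgeR) and -0.27 ± 0.27 (SE; adjusted p = 0.809 by edgeR).

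The inducible HSP70 pair was barely present. Hspa1a (chr17:34969190-34972156) and Hspa1b (chr17:34956436-34959238), both on the minus strand, had at most 66 and 39 counts in a library and did not pass the filter. Hspa1a averaged 2.18 ± 2.44 CPM (SD, n = 11) across Control, and 2.46 ± 2.5 CPM (SD, n = 6) across Tyrphostin libraries, and Hspa1b 1.45 ± 1.63 CPM (SD, n = 11) and 2.02 ± 2.61 CPM (SD, n = 6). Both were at 0 in Control 6 and Control 10, where 3 counts would be 1.65 and 0.674 CPM of the unscaled total, and Hspa1b also in Control 3. The highest values of the pair came from batch 2, in both groups: Control 7 and Control 8 held 6.01 and 7.36 CPM of Hspa1a, and Tyrphostin 4 and Tyrphostin 5 held 4.64 and 6.43 CPM. The same 4 libraries held 3.92, 4.35, 2.05 and 7.24 CPM of Hspa1b. Markers of other cell types were high in 3 of these: theca and stroma markers held 0.194% of counts in Control 7, 0.216% in Control 8 and 0.368% in Tyrphostin 5, and at most 0.139% in any other library. Immune markers held 0.0272%, 0.0497% and 0.103% in the same 3, and at most 0.0111% elsewhere. The highest immune shares were mostly Lyz2, which reached 433.5 CPM in Control and 814.1 CPM in Tyrphostin libraries. The immune markers Csf1r, Cd68, Adgre1 and Ptprc reached at most 20.2, 4.79, 3.81 and 1.28 CPM in Control libraries. In Tyrphostin libraries they reached 20.4, 5.9, 6.7 and 2.68 CPM. The part of the theca, stroma and immune markers in the levels of the pair was not tested. In batch 2 alone both genes passed the filter, with log2 changes of 0.35 ± 0.98 (SE; adjusted p = 0.94 by edgeR) for Hspa1a and 0.73 ± 1.02 (SE; adjusted p = 0.887 by edgeR) for Hspa1b. Hspb1, the ubiquitous small heat shock protein (chr5:135887919-135889563, plus strand), had at most 5 counts in a library and 0 in 6 libraries, so no difference was detectable at this depth.

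Hsp90ab1, the constitutive HSP90 (chr17:45567775-45573271, minus strand), was the most abundant member. It ran from 2500.2 to 7429 CPM in Control (median 5722) and from 2525 to 6563 CPM in Tyrphostin libraries (median 4084). Over both batches no Tyrphostin library lay outside the Control range, but in batch 1 those at 5508 and 4558 CPM lay below all 6 Control libraries (5722 to 7429 CPM). The share of all genes with this order in batch 1 was not counted. The log2 fold change was -0.32 ± 0.17 (SE; edgeR p = 0.08, adjusted p = 0.28), with -0.22 ± 0.23 in batch 1 and -0.42 ± 0.3 in batch 2 (SE). The stress-inducible paralog Hsp90aa1 (chr12:110690605-110702728, minus strand) ran from 36.5 to 82.2 CPM in Control (median 53.4) and from 40.7 to 77.1 CPM in Tyrphostin libraries (median 54.8). Its log2 fold change was -0.01 ± 0.16 (SE; adjusted p = 0.982 by edgeR) and became 0.15 with total-count scaling, so that it has no stable sign.

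No change was called for the mitochondrial folding pair. Hspd1, the HSP60 ring subunit (chr1:55077835-55088243, minus strand), ran from 236 to 469.7 CPM in Control (median 316) and from 277 to 443 CPM in Tyrphostin libraries (median 334), a log2 change of 0.11 ± 0.17 (SE; adjusted p = 0.762 by edgeR). Hspe1, its HSP10 lid (chr1:55088132-55091307, plus strand), ran from 29.5 to 64.5 CPM (median 43.7) and from 28.5 to 53.5 CPM (median 44.6), a log2 change of 0 ± 0.18 (SE; adjusted p = 0.999 by edgeR). The groups overlapped for both genes.

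**Figure D3:**
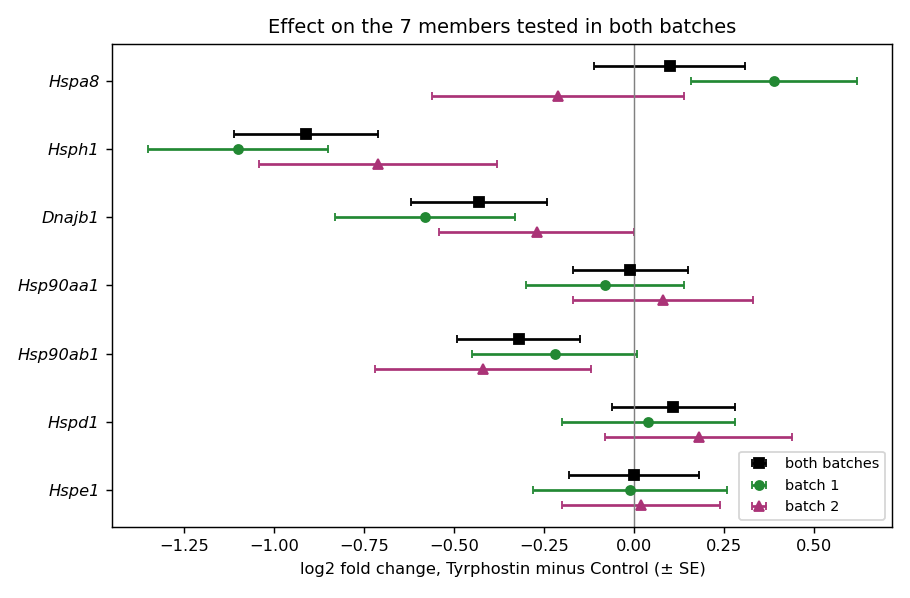
Log2 fold changes of the members, Tyrphostin against Control. The horizontal axis is the log2 fold change, points with bars are the estimate ± SE from the 17 libraries (batch as a term) and within each batch, and the 7 members tested in both batches are drawn. Hsph1 lies lowest in all 3 fits, at -0.91, -1.1 and -0.71.

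Hsp90ab1 also differed between the batches of Control libraries. Among Control libraries Hsp90ab1 stood at 6476 ± 635 CPM (SD, n = 6) in batch 1 and at 4056 ± 1128 CPM (SD, n = 5) in batch 2. Every Control library of batch 2 (2500.2 to 5472 CPM) lay below every one of batch 1 (5722 to 7429 CPM). The share of all genes that separate in this way was not counted. The log2 difference was -0.66 ± 0.21 (SE; adjusted p = 0.0484 by edgeR). It was the 1 call among the 7 members tested, against 14.0% of 6680 genes. Fewer genes were tested than in the other fits, since the filter took all Control libraries as 1 group. DESeq2 kept the call (adjusted p = 0.00636). In edgeR the call lay at the threshold: the adjusted p was 0.0564 with RLE scaling, 0.0775 with total counts and 0.113 without a filter, and it exceeded 0.05 in each of the 10 fits that left out 1 Control library other than Control 7. Without Control 7, 3 members were called lower in batch 2: Hsp90ab1 (-0.77, edgeR adjusted p = 0.0198), Hsp90aa1 (-0.66, 0.0182) and Dnajb1 (-0.62, 0.0475). With Control 7, Hsp90aa1 had a log2 difference of -0.49 ± 0.2 (SE; adjusted p = 0.107 by edgeR) and Dnajb1 of -0.46 ± 0.22 (SE; adjusted p = 0.187 by edgeR). The Tyrphostin libraries, not part of that fit, held 5543 ± 1003 CPM (SD, n = 3) of Hsp90ab1 in batch 1 and 3024 ± 547 CPM (SD, n = 3) in batch 2.

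Ratios of counts within a library need no scaling between libraries, and 4 were examined, added after the data were seen. Hsph1 per Hspa8, exchange factor per HSP70, was 0.108 ± 0.0365 (SD, n = 11) across Control, and 0.051 ± 0.0106 (SD, n = 6) across Tyrphostin libraries. The log2 difference was -1.46 in batch 1 and -0.56 in batch 2, with a mean of -1.01 (exact two-sided permutation test over 4704 arrangements within batches, p = 0.00149, adjusted p = 0.00596 over the 4 ratios). In batch 1 the 3 Tyrphostin libraries (0.0516, 0.0466 and 0.0347) lay below all Control libraries (0.0866 to 0.186). In batch 2 those at 0.0671, 0.0502 and 0.0555 lay below all Control libraries but Control 7, at 0.0489. Since the fall of Hsph1 was already seen in these libraries, the ratio is not independent support for it.

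The other ratios did not pass the threshold. Dnajb1 per Hspa8 was 0.0464 ± 0.0195 (SD, n = 11) across Control, and 0.0308 ± 0.01 (SD, n = 6) across Tyrphostin libraries, a mean log2 difference of -0.53 (exact permutation p = 0.0559, adjusted p = 0.103), with -0.95 in batch 1 and -0.11 in batch 2. Leaving out Control 6, Control 7 or Tyrphostin 5 brought its unadjusted exact permutation p to 0.0322, 0.0412 and 0.0147. Over all 17 fits that left out a library, the difference ran from -0.66 to -0.36 (without Tyrphostin 6). The unadjusted exact permutation p ran from 0.0147 to 0.187. Hsp90aa1 per Hsp90ab1, inducible per constitutive HSP90, was 0.011 ± 0.00219 (SD, n = 11) and 0.014 ± 0.00375 (SD, n = 6). A total of 4 of 6 Tyrphostin libraries lay above every Control library, the 3 of batch 2 among them, while Tyrphostin 3 was near the bottom of the Control range. The mean log2 difference was 0.32 (exact permutation p = 0.0774, adjusted p = 0.103), and 0.44 without Tyrphostin 3 (exact permutation p = 0.0185, unadjusted). Over all 17 fits that left out a library, it ran from 0.17 (without Tyrphostin 2) to 0.44. The unadjusted exact permutation p ran from 0.0185 to 0.314. Hspe1 per Hspd1, lid per ring subunit, was 0.135 ± 0.0366 (SD, n = 11) and 0.124 ± 0.0306 (SD, n = 6; exact permutation p = 0.558).

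**Figure D4:**
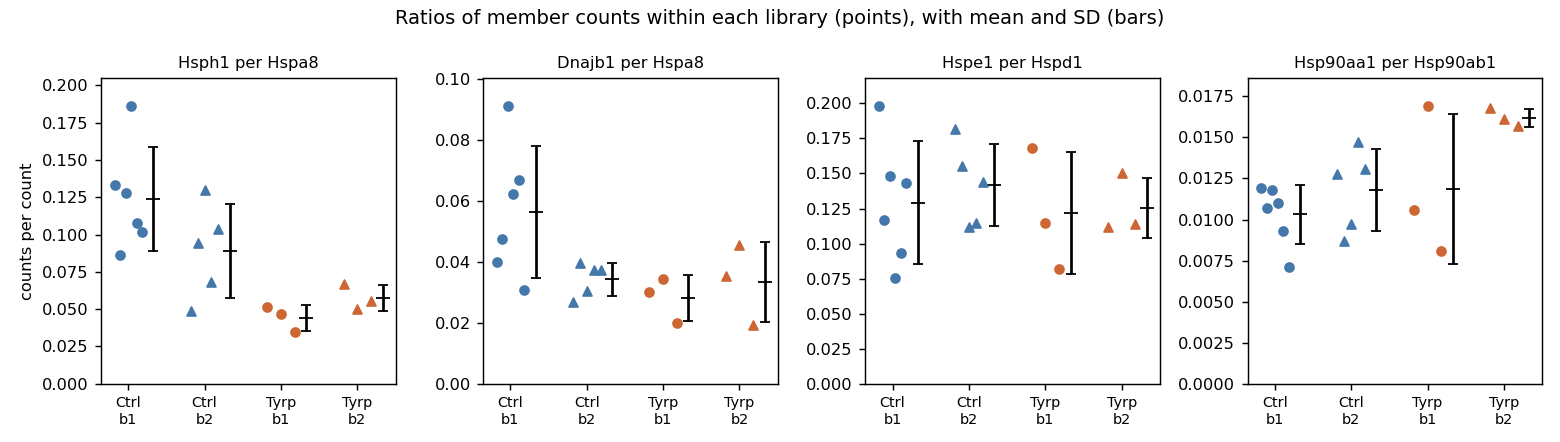
Ratios of counts between members within each library. The vertical axes are counts of the first gene per count of the second and start at 0, points are libraries by group and batch (Ctrl and Tyrp, b1 and b2), and black bars are the mean ± SD. The Tyrphostin values of Hsph1 per Hspa8, 0.0347 to 0.0671, lie at or below the low end of the Control values.

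How the members varied together was examined over the 17 libraries after subtracting the mean of each treatment and batch group from log2 CPM. Hspa1a and Hspa1b moved together, with Pearson r = 0.79 and Spearman rho = 0.76 (permutation p = 0.00369 and 0.00659, adjusted p = 0.0148 and 0.0264 over 4 pairs), and r = 0.7 without the 2 libraries farthest from the median of Hspa1a. Since these genes share most of their sequence, reads of 1 may have been counted for the other. For Hspd1 and Hspe1, which share a promoter region, r was 0.24 and rho 0.28 (permutation p = 0.414 and 0.314, adjusted p = 0.416 and 0.419; r = 0.29 without 2 libraries). For Hsp90aa1 and Hsph1 r was 0.43 and rho 0.33 (permutation p = 0.14 and 0.238, adjusted p = 0.28 and 0.419; r = 0.56 without 2 libraries). For Hspa8 and Dnajb1 r was 0.24 and rho 0 (permutation p = 0.416 and 0.997, adjusted p = 0.416 and 0.997; r = -0.13 without 2 libraries). Over all 21 pairs of the 7 tested members, r ran from -0.02 (Hsp90ab1 and Hspd1) to 0.69 (Hspa8 and Hsp90ab1), as a description.

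The mean z score of the 7 tested members was also compared with 6326 other genes over the same 17 libraries, as a description, since libraries share depth and scaling. The genes with the highest r were Serbp1, which encodes an mRNA-binding protein (0.92), the glutathione transferase gene Gsta4 (0.92), the ATP synthase subunit gene Atp5g3 (0.9), the PDZ and LIM protein gene Pdlim1 (0.89) and the tRNA synthetase gene Eprs (0.89). Of these, Gsta4 and Pdlim1 were lower with the inhibitor, with log2 changes of -1.3 ± 0.25 (SE; adjusted p = 0.00147 by edgeR) and -0.73 ± 0.18 (SE; adjusted p = 0.0105 by edgeR). Serbp1, Atp5g3 and Eprs had values of -0.04, 0.11 and 0.01.

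The wider chaperone network was read from 8 lists of 95 other genes, of which 79 were tested. A total of 7 were called, 1 higher and 6 lower, which is near the background of 10.6% of all genes (4.35% higher and 6.25% lower). The median log2 fold change was -0.1. None of the 10 exchange factors and partners of HSP70 (median 0.04), the 15 HSP90 paralog and co-chaperone genes (0.06) or the 8 mitochondrial proteases and unfoldases (0.13) was called by edgeR. Of the 9 other small heat shock proteins 1 was tested, and it was not called (-0.42).

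Among the other HSP70 and HSP110 genes 1 of 6 tested was lower (median -0.28). This was Hspa9, the HSP70 of the mitochondrial matrix, at 834 ± 112 CPM (SD, n = 11) across Control, and 594 ± 68.4 CPM (SD, n = 6) across Tyrphostin libraries. Its log2 fold change was -0.49 ± 0.15 (SE; adjusted p = 0.0364 by edgeR). Of 6 Tyrphostin libraries, 4 lay below every Control library (share over all genes not counted). Hspa4, an HSP110 like Hsph1, had a value of -0.3 ± 0.15 (SE; adjusted p = 0.236 by edgeR).

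Of 15 J-domain genes tested, 1 was higher and 2 lower (median -0.1). Dnajc9, a nuclear J-domain protein that acts as a histone chaperone, rose, with a mean of 17.5 ± 3.74 CPM (SD) over 11 Control and 32.9 ± 4.49 CPM (SD) over 6 Tyrphostin libraries and a log2 change of 0.92 ± 0.16 (SE; adjusted p = 0.000373 by edgeR). All 6 Tyrphostin libraries (28.1 to 40.1 CPM) lay above every Control library (11.8 to 24.5 CPM), which held for 0.510% of genes. Dnajc5, the cysteine string protein of secretory vesicles, and Dnajb6, a suppressor of protein aggregation, fell, with log2 changes of -0.52 ± 0.15 (SE; adjusted p = 0.0298 by edgeR) and -0.44 ± 0.14 (SE; adjusted p = 0.0465 by edgeR). Dnaja1, a cytosolic partner of Hspa8, had a value of 0.04 ± 0.17 (SE). Of 14 TRiC and prefoldin subunits, which fold actin and tubulin, the prefoldin genes Pfdn2 (-0.64 ± 0.2, SE; edgeR adjusted p = 0.0443) and Pfdn4 (-0.93 ± 0.27, SE; edgeR adjusted p = 0.0303) were lower (median of the list -0.14).

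The heat shock factors and their targets outside the chaperones had a median of -0.4 over 10 tested, with 1 called, Ier5, which encodes an immediate early protein that binds HSF1. Its mean was 4.97 ± 1.84 CPM (SD) over 11 Control and 2.21 ± 0.793 CPM (SD) over 6 Tyrphostin libraries, a log2 change of -1.13 ± 0.27 (SE; adjusted p = 0.00693 by edgeR). Of 6 Tyrphostin libraries, 4 lay below every Control library (share over all genes not counted). Hsf1 itself ran from 35.7 to 56.4 CPM in Control and from 23.8 to 48.5 CPM in Tyrphostin libraries, a log2 change of -0.44 ± 0.16 (SE; edgeR adjusted p = 0.0742). Hsf1 was called by DESeq2 (adjusted p = 0.038) and by limma-voom (0.0466). It was also called without Tyrphostin 3 (edgeR adjusted p = 0.0344), and was not called with total counts (0.28), no filter (0.277), the replicate block (0.169) or Control libraries summed by set (0.185). Hsf2 had a value of 0.54 ± 0.29 (SE; adjusted p = 0.258 by edgeR). Among partners of the members, Bag3, an exchange factor for HSP70, Stip1, which bridges HSP70 and HSP90, and the mitochondrial HSP90 Trap1 had values of -0.1 ± 0.16, -0.11 ± 0.15 and 0.19 ± 0.21 (SE). The signs of Bag3 and Stip1 flip with total-count scaling, to 0.05 and 0.04. Of these 7 calls, those of Hspa9, Dnajc5, Dnajb6, Pfdn2 and Pfdn4 were each lost in 4 to 15 of the 17 fits that left out a library. In the 11 other alternatives, the calls of Hspa9, Dnajb6 and Pfdn2 were each lost in 7. That of Dnajc5 was lost in 5 and that of Pfdn4 in 4. A threshold of 0.01 was 1 of these alternatives. The calls of Dnajc9 and Ier5 were lost in 0 of the 17 fits that left out a library. That of Ier5 was lost in 1 of the 11 other alternatives, the replicate block (edgeR adjusted p = 0.0975). That block takes its treatment value from batch 1 alone.

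**Figure D5:**
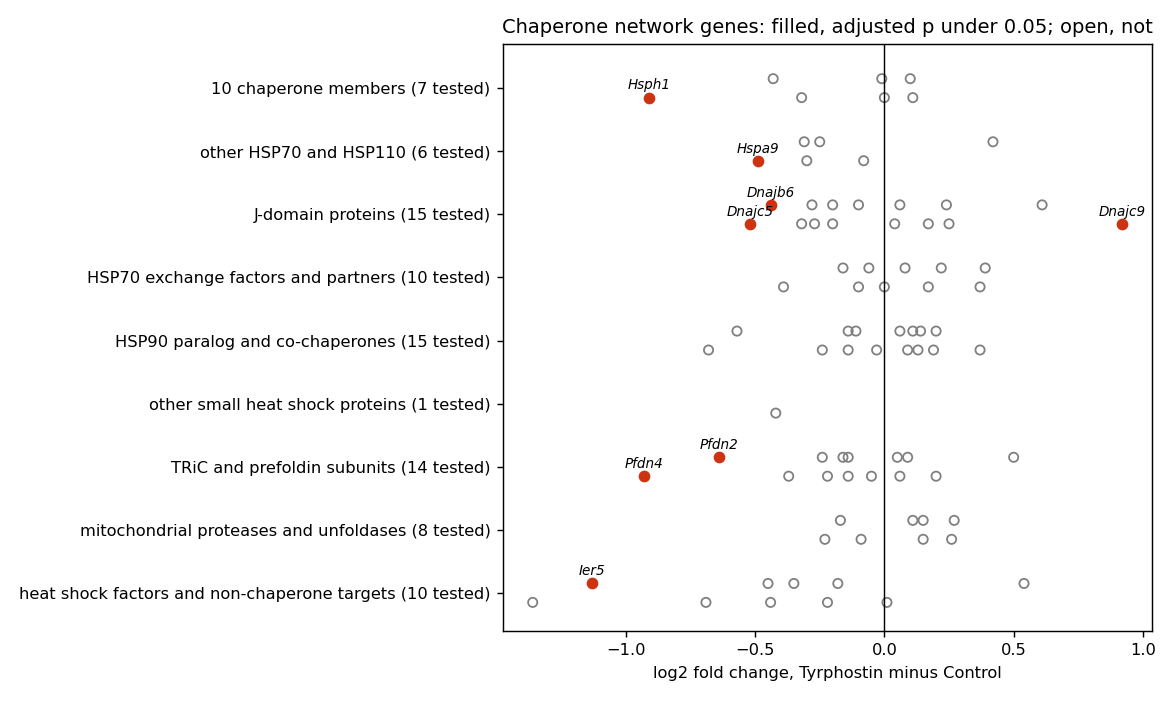
Log2 fold changes of the 10 members and of 8 lists of other chaperone network genes. The horizontal axis is the log2 fold change, Tyrphostin against Control with batch as a term, each point is a gene, and filled, named points have an edgeR adjusted p under 0.05. Filled points are Hsph1, 6 lower genes of other lists and 1 higher gene, Dnajc9.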

How the data were processed

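Raw counts per gene symbol were deposited by the authors for 17 Smart-Seq2 libraries, made without molecular identifiers, in a table of 25198 rows, 3576 of them without counts. The submitters' processing notes name STAR, HTSeq and GRCm38. Versions, settings, annotation and strandedness are not given in the sources used here. Totals were 1820545 to 8291024 counts per library, and floors of 3 counts cover counting error only.

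Tests used the quasi-likelihood F test of edgeR 4.0.16 under R 4.3.3 (TMM, robust glmQLFit, low counts filtered by filterByExpr with the group) over all genes, with Benjamini-Hochberg adjustment and a threshold of 0.05. In the fit of batch 2 against batch 1, filterByExpr took all Control libraries as 1 group. SE is the size of the log2 fold change divided by the square root of F. Fits were Tyrphostin against Control with batch as a term, within each batch, the interaction, and batch 2 against batch 1 in Control. Correlations used log2 CPM (prior count 2), with 100000 resamples within groups. The 4 ratios of counts were added after seeing the data. Alternatives were RLE and total-count scaling, limma-voom (limma 3.58.1), DESeq2 1.42.0, 2 other filters, no mitochondrially encoded genes, no batch term, a replicate block, Control libraries summed by set, a threshold of 0.01, and each library left out in turn. The code was tested on simulated counts.

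The members and lists were chosen with earlier results of these data known. Genes named were the members, up to 3 called genes per network list and direction, 8 network genes named whatever their change, the 5 genes most like the members (average log2 CPM of at least 3), and Ptgs2 and Dusp6. Positions are from GENCODE M21 (GRCm38), and promoter sequences from RefSeq (GRCm38.p6).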

Additional observations from a re-analysis of the deposited data

How the results depend on the processing

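Hsph1 was the 1 member called in all 11 alternatives over all libraries, with log2 fold changes of -1.02 to -0.75 and edgeR, DESeq2 or limma adjusted p of 0.000235 to 0.0154, and in each of 17 fits with 1 library omitted (-0.99 to -0.82, edgeR adjusted p of 0.00165 to 0.0186). The replicate block, 1 of the 11, takes its treatment value from batch 1 alone. Where no cause is named below, the cause was not tested. Depth limits Hspa1a, Hspa1b and Hspb1.

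All genes called, 1018 in all, were 619 without the batch term (237 higher, 382 lower), 478 at an adjusted p under 0.01 (166 higher, 312 lower; a stricter threshold), and by direction 715 higher and 396 lower with total counts, which moved the median of all genes from 0 to 0.15, and 265 higher with Control libraries summed by set. With 1 library omitted there were 708 (Tyrphostin 1) to 1314 (Control 7) in all, and 260 to 593 higher. Within batch 1 the 634 calls were 924 with DESeq2 and 903 with no filter, and 394 (without Tyrphostin 2) to 687 with 1 library omitted. Within batch 2 the 61 calls were 303 with DESeq2 and 222 with no filter, and were 11 without Tyrphostin 6 and 221 without Control 7, the ends of the range. The interaction gave 0, 79 with no filter. Between batches in Control the 937 calls were 1473 with DESeq2. The 1 member called stayed 1 with DESeq2, became 0 with RLE, total counts or no filter, and 0 to 3 on leaving out a library.

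Whether title numbers pair the libraries is not stated. The library names do not give this pairing: Control 1, 2 and 3 are all of set 1, and Control 4, 5 and 6 of set 2. Deviations of same-numbered libraries correlated with r = 0.47, 0.31 and 0.38 for numbers 1 to 3, which share batch 1, and 0.01, -0.13 and -0.06 for numbers 4 to 6, whose libraries come from different batches. Only group means were subtracted and batch was left in, so r cannot tell a pairing from a shared batch. With a replicate block on these numbers there were 636 calls (259 higher, 377 lower), Hsph1 kept its call (-1.02, edgeR adjusted p = 0.0154), 3 network genes were called, and Dnaja1 was -0.2. The treatment value of that fit rests on numbers 1 to 3, all of batch 1. In numbers 4 to 6 treatment and batch change together, and Control libraries with higher numbers have no partner.

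The 7 network genes called became 3 with total counts, no filter or Control libraries summed by set, 4 with at least 1 CPM in 6 libraries, 2 without the batch term or at an adjusted p under 0.01, and 3 to 7 on leaving out a library. The r of Hspa8 and Dnajb1 ran from -0.31 (without Control 7) to 0.37.

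Sign changes were all in values that passed no threshold. Hsp90aa1 was 0.15 with total counts, 0.04 with no filter, 0.01 with at least 1 CPM in 6 libraries and 0.06 with Control libraries summed by set. With total counts Bag3 was 0.05 and Stip1 0.04, in batch 1 Hsp90aa1 was 0.09 and Hspe1 0.13 (0.06 with no filter), and between batches in Control Hspe1 was 0.09. On leaving out a library, Hsp90aa1 ran from -0.07 to 0.08 (batch 1 -0.24 to 0.04, batch 2 -0.04 to 0.26), Hspd1 from -0.01 to 0.16 (-0.05 to 0.15 and -0.07 to 0.31), Hspe1 from -0.19 to 0.22 in batch 1, -0.15 to 0.18 in batch 2 and -0.17 to 0.06 between batches, Hspa8 from -0.39 to 0.12 in batch 2 and -0.03 to 0.37 between batches, Hspa1a from -0.1 to 1.15 and Hspa1b from -0.42 to 1.22 in batch 2, Dnaja1 from -0.04 to 0.11, and Hspe1 per Hspd1 from -0.25 to 0.01.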

Other observations

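Outside the naming rule, and chosen after its values were seen, Fkbp4, an HSP90 co-chaperone of steroid receptors, averaged 1538 ± 566 CPM (SD, n = 11) across Control, and 964.5 ± 477 CPM (SD, n = 6) across Tyrphostin libraries. The log2 change was -0.68 ± 0.27 (SE; adjusted p = 0.116 by edgeR), and the batches gave -0.74 and -0.61. Of 6 Tyrphostin libraries, 4 lay below every Control library (share over all genes not counted). A search of 21 groups of 5 or 6 libraries for a member's value far from the others found 0.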
